A study of Rattus norvegicus with 2 samples.

Results

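Cadherins and protocadherins are the calcium-dependent adhesion molecules that hold neighbouring cells together and let cells of 1 kind sort from cells of another. The genes described here were chosen by symbol alone, as every gene named Cdh with a number or Pcdh with a number or a cluster letter in the deposited table, and the rule itself uses no measured value. This gave 84 genes of the 37203 listed, or 0.226%, made up of 23 Cdh genes, 12 non-clustered Pcdh genes and 49 Pcdh genes of the alpha, beta and gamma clusters. Fat, Dachsous and Celsr genes were left out by the same choice of symbols.

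Classical cadherins bind the same cadherin on the next cell through their extracellular repeats, and hold beta-catenin and p120-catenin with their cytoplasmic tails, through which the junction reaches actin. In the developing heart, N-cadherin (Cdh2) joins cardiomyocytes, VE-cadherin (Cdh5) joins endothelial and endocardial cells, and cadherin-11 (Cdh11) is known from mesenchyme. Protocadherins lack the catenin-binding tail. The non-clustered delta protocadherins act alone or beside classical cadherins, whereas the clustered ones are transcribed from arrays of variable first exons, each with a promoter of its own, and are known above all as identity labels of neurons. The alpha genes share constant exons at the end of their cluster, the gamma genes share another set, and beta genes are single exons.

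RNA-seq was carried out on the cardiac outflow tract (OFT) of Sprague-Dawley rat embryos at E13.5, when septation of the OFT begins. The WT library was made from 10 pooled wild-type embryos and the HO library from 10 pooled homozygous Snx17-/- embryos, which came from a global CRISPR/Cas9 knockout line bred through heterozygous crosses. Snx17 encodes sorting nexin 17, which returns membrane proteins from endosomes to the cell surface. With 1 library per genotype there are no replicates, so the results below carry counting error alone and no p-values.

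The deposited counts summed to 9321811 in WT and 9528615 in HO. A fold is the HO count over the WT count after scaling by the trimmed mean of M-values (TMM), and its exact Clopper-Pearson 95% interval covers counting error only, not differences between embryos, pools or libraries. The comparison took in the 15426 genes whose counts in WT and HO summed to 20 or more, and their median log2 fold was 0.01. Where the whole interval lay beyond 1.5-fold the difference is called large, and where it lay beyond no change (fold of 1) it is called beyond counting error. Snx17 itself was lower beyond counting error and still read in HO, at 1365 counts in WT against 994 in HO (log2 fold −0.47, −0.59 to −0.35). Where 3 values follow a pair of counts in parentheses, they are the log2 fold and the bounds of its interval. Because the tissue is a mixture, fewer cells of a type and less RNA per cell cannot be told apart in any of these values.

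Of the 84 genes, 81 had at least 1 count, 55 reached a sum of 20 counts and 29 did not. The 29 held 108 counts in WT and 90 in HO in all, and the most abundant of them had 19. The 3 genes at 0 in both libraries were the type II cadherins Cdh7 and Cdh9 and the beta cluster gene Pcdhb1. A count of 0 allows up to 3 counts in each library.

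None of the 55 genes showed a large difference in either direction, where 1.18% of all compared genes were lower and 0.771% were higher in HO by that measure. Beyond counting error, 19 of the 55 (34.5%) were lower in HO, against 17.0% of all compared genes, and 4 (7.3%) were higher, against 20.3%. The median log2 fold of the 55 was −0.23. The lower genes were 4 Cdh, 4 non-clustered Pcdh and 11 clustered Pcdh genes, and 10 of these 11 belonged to the gamma cluster, whose genes may share reads. Without the gamma cluster, 9 of 39 genes were lower (23.1%), 4 were higher (10.3%), and the median was −0.11. For 23 of the 55 genes the whole interval lay within 1.5-fold of no change in both directions, which also held for 8507 of the 15426 compared genes.

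**Figure D1:**
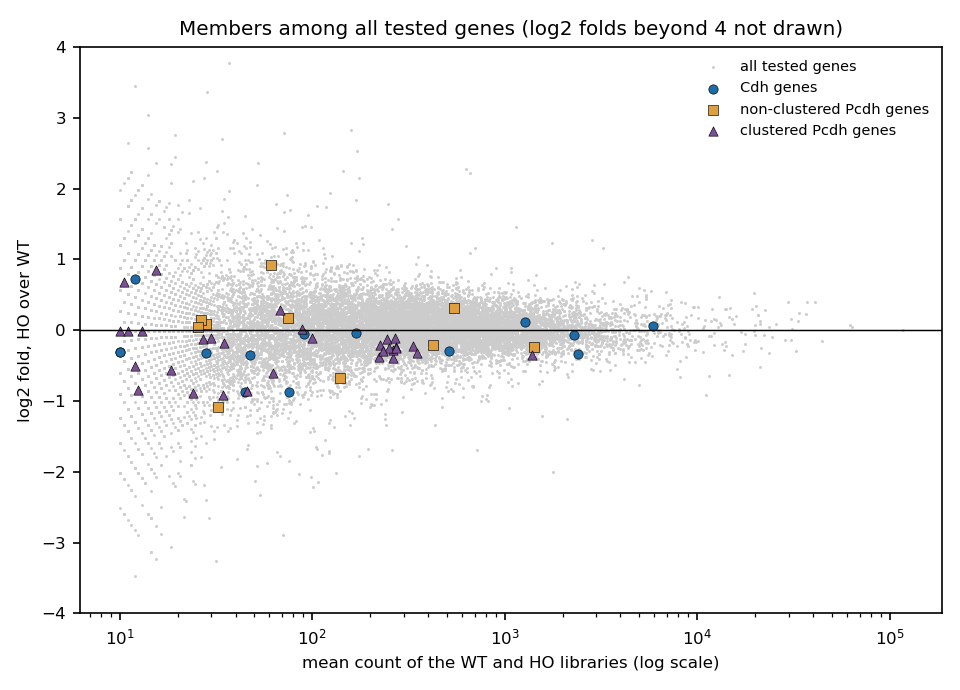
Log2 fold of HO over WT (vertical axis, TMM-scaled) against the mean count of both libraries (horizontal log axis) for all compared genes in grey and the 55 cadherin and protocadherin genes in colour. The coloured points lie mostly below 0, with 42 below and 13 above, where 48.6% of all compared genes lie below 0. Without the gamma cluster genes, which may share reads, 26 lie below and 13 above. Of the grey genes, 4 with a log2 fold beyond 4 or with no finite fold are not drawn.

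Levels of different genes are compared here per length, as the deposited RPKM (reads scaled by gene length and library size). Among the Cdh genes, 5 held nearly all of the family's summed RPKM, with 95.4% in WT and 95.9% in HO. Cdh2 stood first, with 39.5% of the summed Cdh RPKM in WT and 42.9% in HO. Cdh3 followed with 23.6% and 19.5%, and Cdh5 with 15.5% and 17.6%. Cdh11 held 11.4% and 11.3%, and Cdh24 held 5.40% and 4.58%. The summed RPKM of all Cdh genes was 329 in WT and 313 in HO.

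Among the 24 Cdh and non-clustered Pcdh genes compared, the order by RPKM was the same for the first 9 genes in both libraries: Cdh2, Cdh3, Cdh5, Cdh11, Pcdh18, Cdh24, Pcdh1, Pcdh7 and Cdh8. Each of these was apart from the gene above it by non-overlapping Poisson intervals of the count. Lower down most neighbours overlapped, so their order is not resolved at this depth. In WT, 10 of the 23 neighbouring pairs were apart and 13 overlapped, and in HO 9 were apart and 14 overlapped.

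**Figure D2:**
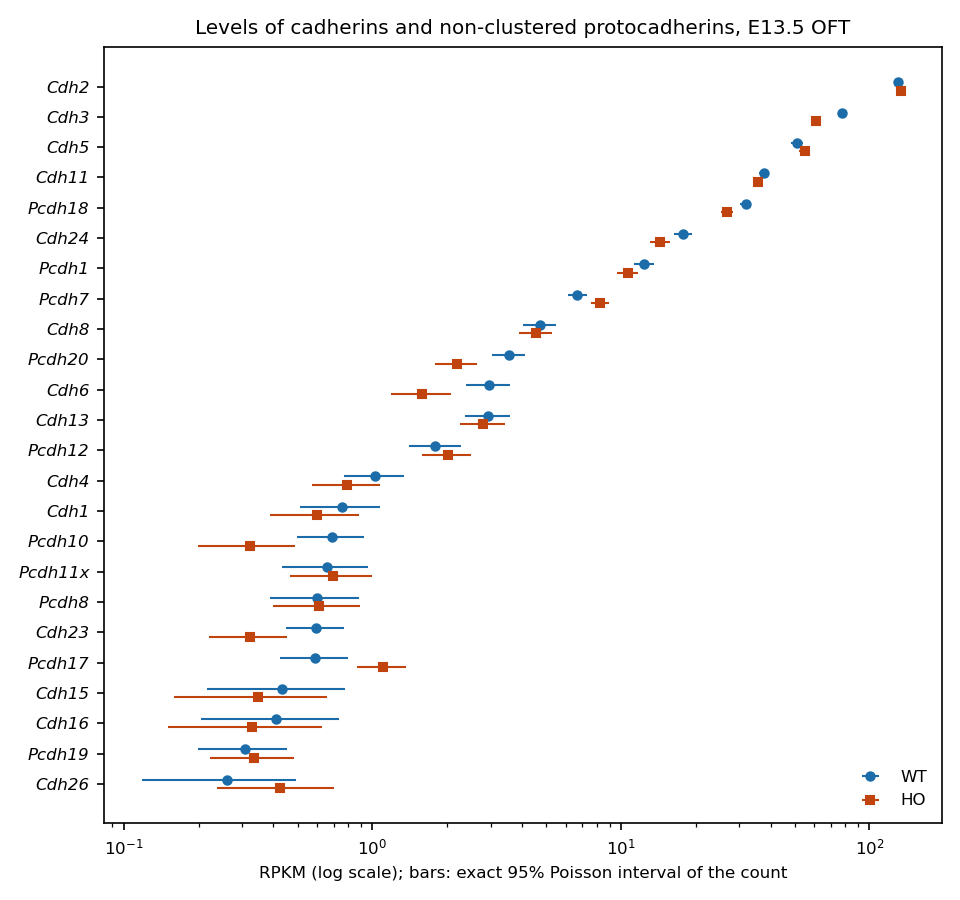
RPKM of the 24 Cdh and non-clustered Pcdh genes with at least 20 counts (log axis), in WT and HO, with exact Poisson 95% intervals of the counts. Cdh2 is highest in both libraries, at 129.9 RPKM in WT and 134 in HO, and the genes below Cdh8 overlap for the most part.

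Type I classical cadherins hold closely packed cells of 1 kind together. Cdh2, the N-cadherin of cardiomyocytes, had 5713 counts in WT and 6033 in HO. Its log2 fold was 0.06 (0.01 to 0.12), higher in HO beyond counting error by a small step. This call ended with total counts as library size (0.05, −0.01 to 0.10), with the RPKM ratio and with upper-quartile scaling. By quantitative PCR of OFT RNA, the paper reported no significant difference in N-cadherin between WT and HO.

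Cdh3 is P-cadherin, best known from placenta and from basal layers of epithelia. It had 2660 counts in WT and 2137 in HO, or 77.7 and 61.0 RPKM. The log2 fold of −0.33 (−0.41 to −0.25) was lower beyond counting error, and within 1.5-fold. Against Cdh2 in the same library, its RPKM ratio was 0.598 in WT and 0.455 in HO, so the ratio in HO was 0.761 times that in WT (0.711 to 0.814). The balance of the most abundant pair of cadherins thus differed between the libraries by more than counting error, whatever scaling is used, because a ratio within a library does not depend on it.

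The other type I genes were rare. Cdh1, the E-cadherin of epithelia, had 31 counts in WT and 25 in HO (−0.33, −1.15 to 0.48). Cdh4, R-cadherin, had 53 and 42 (−0.35, −0.97 to 0.26), and Cdh15, the M-cadherin of skeletal muscle, had 11 and 9 (−0.30, −1.75 to 1.10). None of these 3 differed beyond counting error, and their intervals include 1.5-fold in at least 1 direction.

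Type II classical cadherins include the endothelial and mesenchymal members. Cdh5, VE-cadherin, had 1217 counts in WT and 1336 in HO. Its log2 fold of 0.12 (0.01 to 0.23) was higher beyond counting error, but not with total counts (0.10, −0.01 to 0.22), the RPKM ratio, upper-quartile scaling, or centring of the folds by gene length or by abundance. Its ratio to Cdh2 in HO was 1.04 times that in WT (0.953 to 1.13), which did not differ beyond counting error. Of the 8 endothelial and endocardial markers listed for comparison, 5 were higher beyond counting error (62.5%, against 20.3% of all compared genes). Lower was 1 of them (12.5%, against 17.0%). The 8 markers had a median log2 fold of 0.18 and a summed level of 708 CPM (counts scaled to library size) in WT and 776 in HO. Tie1 and Tek, endothelial receptors with the most reads in that list, had 2095 and 2164 counts and 1259 and 1560 counts. The part of endothelial content in the Cdh5 value was not tested.

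Cdh11, cadherin-11 of mesenchyme, had 2345 counts in WT and 2262 in HO (−0.07, −0.15 to 0.02). It did not differ beyond counting error, although with upper-quartile scaling it was lower (−0.11, −0.20 to −0.03). Relative to Cdh2 its ratio in HO was 0.913 times that in WT (0.853 to 0.978). Cdh24, a less studied type II cadherin, had 565 and 466 counts, with a log2 fold of −0.29 (−0.47 to −0.11). It was lower beyond counting error, and relative to Cdh2 its ratio was 0.781 times (0.686 to 0.889) that in WT.

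Cdh6 and Cdh8 are type II cadherins known from the developing nervous system, and Cdh6 also from kidney and from neural crest. Cdh6 was lower beyond counting error, at 98 counts in WT against 54 in HO (−0.88, −1.38 to −0.38). Cdh8 had 171 and 168 (−0.04, −0.36 to 0.28). The pair moved apart, with a ratio of Cdh6 to Cdh8 in HO that was 0.562 times that in WT (0.370 to 0.847). The list of 7 neural crest and Schwann cell markers had 4 members compared. Of these, 1 was lower (25.0%, against 17.0% of all compared genes) and none was higher (against 20.3%). The summed level of the list was 186 CPM in WT and 159.8 in HO. Ngfr, the low-affinity neurotrophin receptor, had 886 and 733 counts and was the lower one, and Erbb3, the neuregulin receptor of crest-derived glia, had 645 and 624. Foxd3 and Fabp7 were at 0 in both libraries. Their part in the Cdh6 value was not tested.

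The remaining Cdh genes lie outside the classical types. Cdh23, the cadherin of hair-cell tip links, had 58 counts in WT and 32 in HO (−0.87, −1.54 to −0.23) and was lower beyond counting error. Cdh13, T-cadherin, which is held by a lipid anchor and binds adiponectin, had 92 and 90 (−0.05, −0.48 to 0.39). Cdh16, the kidney-specific cadherin, had 11 and 9 counts, and Cdh26 had 9 and 15. None of these 3 differed beyond counting error. Over all 14 Cdh genes compared, 4 were lower (28.6%, against 17.0% of all compared genes) and 2 were higher (14.3%, against 20.3%), with a median log2 fold of −0.30. With 14 genes these counts lie near the shares over all genes. That median moved to −0.12 when folds were centred by abundance, and to −0.06 among genes with at least 100 counts.

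**Figure D3:**
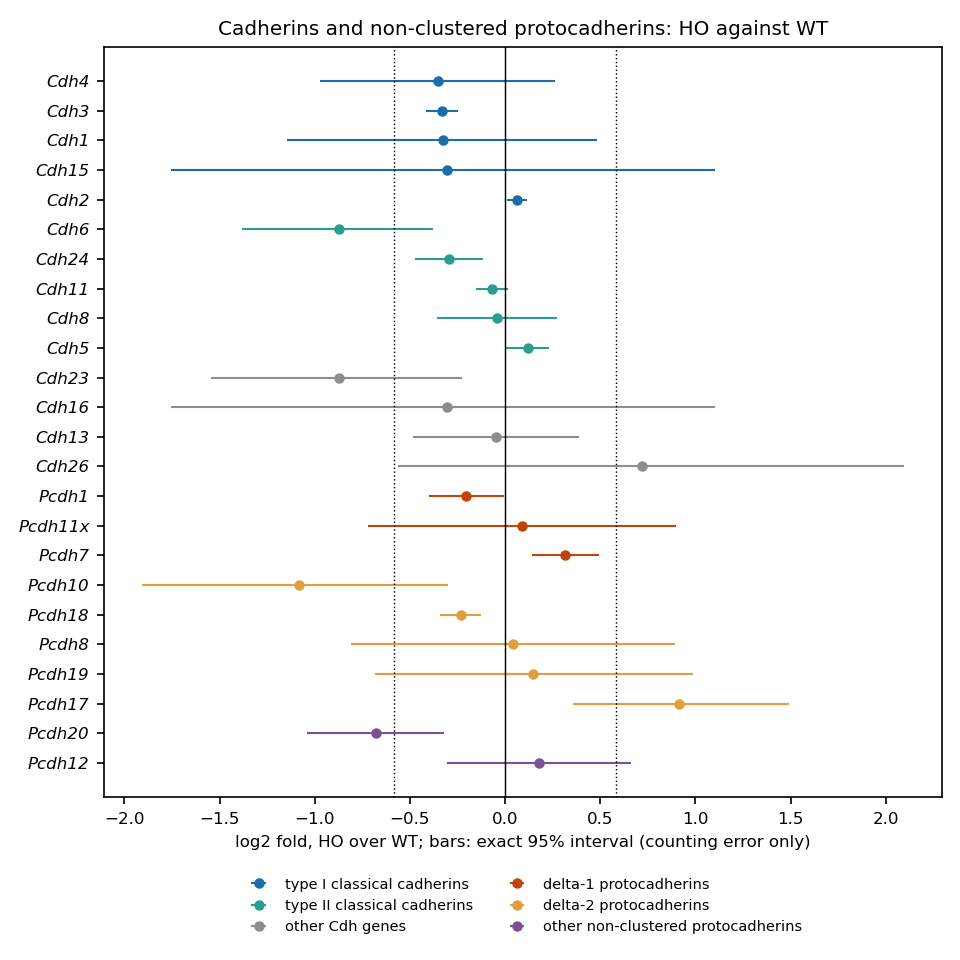
Log2 fold of HO over WT (horizontal axis) with exact 95% counting intervals for the 24 Cdh and non-clustered Pcdh genes. The intervals of Cdh3, Cdh6, Cdh23, Cdh24, Pcdh1, Pcdh10, Pcdh18 and Pcdh20 lie below 0, and those of Cdh2, Cdh5, Pcdh7 and Pcdh17 lie above 0.

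The non-clustered protocadherins went in both directions. Of the 10 compared, 4 were lower (40%, against 17.0% of all compared genes) and 2 were higher beyond counting error (20%, against 20.3%). The median log2 fold was 0.06, which was −0.014 among genes with at least 100 counts. In the delta-1 group, Pcdh7 was higher, at 484 counts in WT against 609 in HO (0.32, 0.14 to 0.49). Pcdh1, also known from airway epithelium, had 455 and 399 (−0.20, −0.40 to −0.01) and was lower, except with DESeq2 size factors (−0.19, −0.39 to 0.01). Pcdh11x, a gene of the X chromosome, had 27 and 29 (0.09, −0.72 to 0.90), which did not differ beyond counting error.

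The delta-2 group holds protocadherins whose tails bind the WAVE complex, a regulator of branched actin. Pcdh18 was the most abundant protocadherin outside the clusters, with 1533 counts in WT and 1318 in HO (31.8 and 26.7 RPKM). Its log2 fold of −0.23 (−0.34 to −0.13) was lower beyond counting error. Pcdh10, which in mouse and human recruits Nckap1 of the WAVE complex, had 44 and 21 counts, and its log2 fold of −1.08 (−1.91 to −0.30) was the lowest among the 55 genes.

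Pcdh17 differed in the other direction. It had 42 counts in WT and 80 in HO, and its log2 fold of 0.91 (0.36 to 1.49) was the highest of the 55. Pcdh17 and Pcdh18 thus moved apart within 1 subgroup, with a ratio of Pcdh17 to Pcdh18 in HO that was 2.21 times that in WT (1.49 to 3.32). Pcdh8, the relative of paraxial protocadherin, had 25 and 26 counts (0.04, −0.81 to 0.89), and Pcdh19, which binds N-cadherin in zebrafish, had 25 and 28 (0.15, −0.68 to 0.99). The intervals of both include 1.5-fold in either direction.

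Of the non-clustered genes outside the delta groups, Pcdh20 had 171 counts in WT and 108 in HO. Its log2 fold of −0.68 (−1.04 to −0.32) was lower beyond counting error. Pcdh12, a protocadherin of endothelial cells, had 70 and 80 (0.18, −0.30 to 0.66). Pcdh20 and Pcdh18 were both lower where Pcdh7 was higher, so relative to Pcdh7 their ratios in HO were 0.502 times (0.380 to 0.662) and 0.683 times (0.592 to 0.788) those in WT. The ratio of Pcdh17 to Pcdh12 was 1.66 times that in WT with an interval that included 1 (up to 2.81), so these 2 genes were not apart beyond counting error.

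The clustered protocadherins together held 5746 counts in WT and 4781 in HO, and this sum was lower beyond counting error (log2 fold −0.28, −0.34 to −0.22). Of the 31 genes compared, 11 were lower (35.5%, against 17.0% of all compared genes), none was higher (against 20.3%) and the median was −0.24. Without the gamma cluster, 1 of 15 was lower (6.7%), which is under the share over all genes. These 15 genes had few reads, with median counts of 22 in WT and 17 in HO, against 219 and 226 for all compared genes. Their intervals were wide, and only that of Pcdhb17 lay within 1.5-fold, so the low share is not a result about them. Nearly all counts of the clustered genes were in the gamma cluster, with 5254 counts in WT and 4339 in HO. The beta cluster held 420 and 374, and the alpha cluster 72 and 68. By summed counts, which are not scaled by length, the 3 clusters ranked gamma, beta, alpha in both libraries. The gamma sum may count shared reads more than once, so this is not a ranking of levels.

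**Figure D4:**
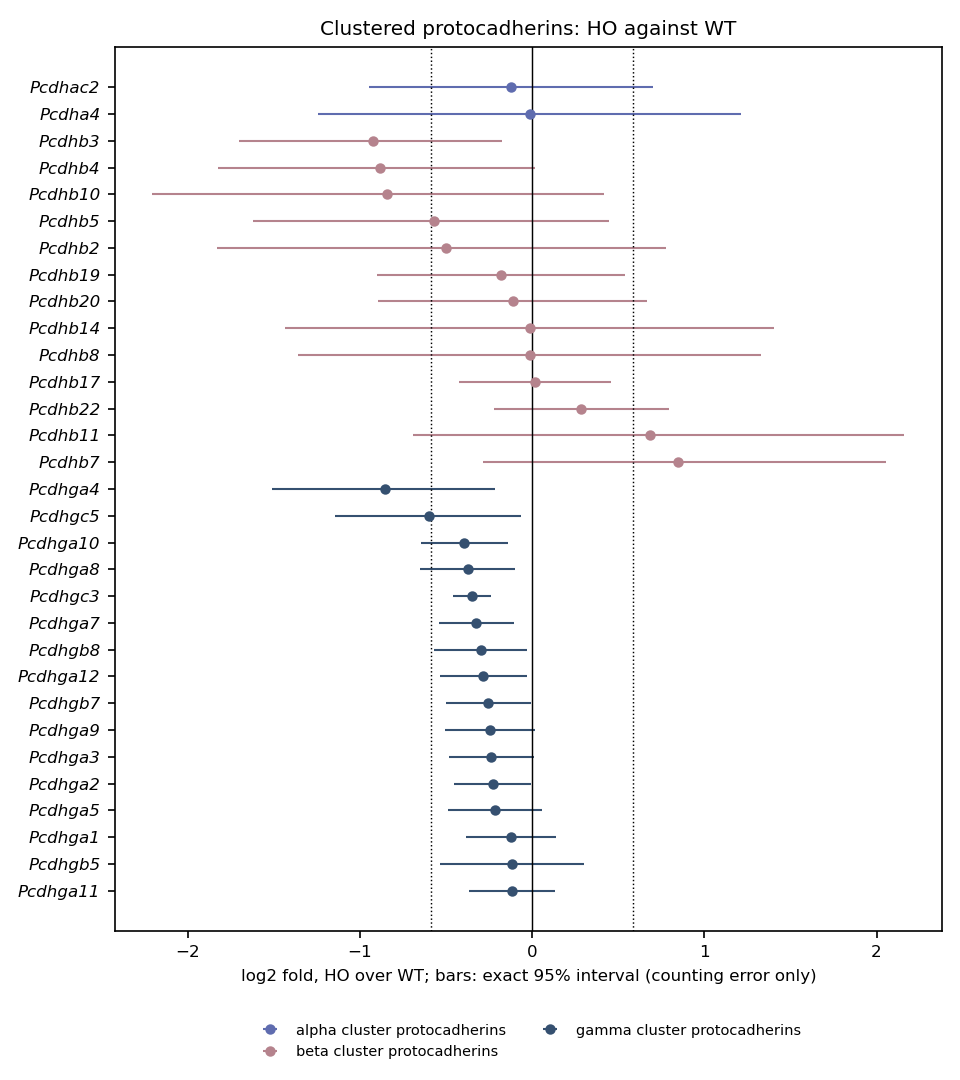
Log2 fold of HO over WT (horizontal axis) with exact 95% counting intervals for the 31 clustered protocadherins compared, by cluster. All 16 gamma genes lie below 0, 10 of them with the whole interval, whereas the beta genes spread to both sides with wide intervals.

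All 16 gamma genes were compared and all 16 log2 folds were below 0, from −0.85 to −0.12, with a median of −0.27. Pcdhgc3, the C-type gene that is known to be expressed widely outside neurons too, had the most reads, with 1542 counts in WT and 1223 in HO (36.3 and 28.2 RPKM). Its log2 fold was −0.35 (−0.46 to −0.24), and relative to Cdh2 its ratio in HO was 0.751 times that in WT (0.690 to 0.817). Without Pcdhgc3 the other 15 held 3712 and 3116 counts, with a summed log2 fold of −0.27 (−0.34 to −0.20). Of these 15, 9 were lower (60.0%, against 17.0% of all compared genes).

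These 16 genes may not be separate measurements. Reads from the shared constant exons cannot be placed in 1 gene, and the sources used here do not say how the authors counted them. The 12 genes other than Pcdhgc3 that are longer than 4400 bases, a limit set after the values were seen, had nearly equal lengths (4500 to 4713 bases) and counts that lay close together, from 241 to 389 in WT and from 194 to 314 in HO. With the whole cluster taken as 1 gene beside the 15 alpha and beta genes compared, 2 clustered genes were lower, in place of 11 of 31. Over all compared genes 17.0% were lower, so these 2 do not stand out. The summed interval may be too narrow if reads were counted more than once.

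Of the A-type gamma genes, Pcdhga7 had the most reads, with 389 counts in WT and 314 in HO (−0.32, −0.54 to −0.11), and was lower beyond counting error. Pcdhga10 had 299 and 230 (−0.39, −0.65 to −0.14), and Pcdhga8 had 249 and 194 (−0.38, −0.65 to −0.10). Pcdhga12 had 288 and 239 (−0.28, −0.54 to −0.03), and all 3 were lower too. Pcdhga4, with fewer reads than the others, had 59 and 33 (−0.85, −1.51 to −0.21) and was lower. The calls at the edge were Pcdhga2, with 357 and 308 (−0.23, −0.45 to −0.004), and the B-type Pcdhgb7, with 295 and 250 (−0.25, −0.50 to −0.01), which both ended with DESeq2 size factors and with centring by gene length.

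The B-type Pcdhgb8 had 257 and 211 counts (−0.30, −0.57 to −0.03) and the C-type Pcdhgc5 had 75 and 50 (−0.60, −1.15 to −0.07), and both were lower. For Pcdhgc5 the deposited values imply a length of 539 bases, far under that of the other gamma genes. The 6 gamma genes whose intervals included no change were Pcdhga1 (253 and 235 counts), Pcdhga3 (295 and 253), Pcdhga5 (241 and 210), Pcdhga9 (272 and 232), Pcdhga11 (280 and 261) and Pcdhgb5 (103 and 96). Of these, Pcdhga3 and Pcdhga9 were lower with total counts, upper-quartile scaling, the RPKM ratio and centring by abundance. Another 4 genes with no gamma symbol of their own, but whose best match in the deposited annotation was a gamma gene, had 37 to 87 counts in WT and 34 to 66 in HO. With them the cluster summed to 5515 and 4567 counts, and the log2 fold stayed at −0.29 (−0.34 to −0.23).

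The beta cluster summed to a log2 fold of −0.18 (−0.39 to 0.02), which did not pass counting error. Of its 13 genes compared, Pcdhb3 was lower, with 45 counts in WT and 24 in HO (−0.92, −1.70 to −0.18). Pcdhb4 had 31 and 17 (−0.88, −1.83 to 0.02) and passed with total counts, the RPKM ratio, upper-quartile scaling and centring by gene length. Pcdhb17 had the most reads, with 88 and 90, and its interval (−0.42 to 0.46) lay within 1.5-fold. The other 10 beta genes compared did not pass counting error. Pcdhb22 had 61 and 75, Pcdhb19 had 37 and 33, Pcdhb20 had 31 and 29, and Pcdhb5 had 22 and 15. The other 6 had 8 to 16 counts in WT, as Pcdhb10 (16 and 9), Pcdhb2 (14 and 10), Pcdhb7 (11 and 20), Pcdhb8 (11 and 11), Pcdhb14 (10 and 10) and Pcdhb11 (8 and 13).

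The alpha cluster was close to the limit of detection. Only Pcdhac2 (28 and 26 counts) and Pcdha4 (13 and 13) of its 15 genes reached 20 counts together, and the summed log2 fold of −0.10 (−0.60 to 0.40) turned to 0.05 with centring by abundance. The interval of that sum reaches 1.5-fold lower, so at this depth the alpha cluster gives no direction.

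Because the clustered genes have promoters of their own, RefSeq promoters (GRCr8, 250 bases before to 50 after the start of the gene) were read for what they share. Of the 84 genes, 53 had 1 entry, 1 (Pcdhga4) had more than 1 and was left out, and 30 were not analysed here. All 15 beta and 13 gamma promoters read lay on the forward strand of chromosome 18. For each cluster the run of letters that most of its promoters held on the strand of the gene was taken, of 10 letters for beta and 7 for gamma. Lengths and letters were thus chosen from these promoters, so the high shares there follow from the choice and are a description only.

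The beta run, GGTGGCGCTG, searched on both strands, was in 14 of 15 beta promoters, in none of the 13 gamma promoters and in 0.221% of all 33469 promoters. Its first base lay from −229 to −46 relative to the gene start, with a median of −68.5. The matches of Pcdhb6 (−229) and Pcdhb8 (−208) lay far from the others. The beta promoter without the run was that of Pcdhb1, the beta gene with no read in either library. The 5 stretches below show the run in capitals in the beta promoters of the genes with the most reads among those with an entry, to which Pcdhb3, the lower beta gene, belongs. They lie at chr18:29478756-29478795 (Pcdhb19), chr18:29285596-29285635 (Pcdhb3), chr18:29485802-29485841 (Pcdhb20), chr18:29292203-29292242 (Pcdhb4), chr18:29302396-29302435 (Pcdhb5), all on the forward strand of GRCr8.
Pcdhb19: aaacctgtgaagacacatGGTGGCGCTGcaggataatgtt
Pcdhb3: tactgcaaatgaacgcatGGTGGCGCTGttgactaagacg
Pcdhb20: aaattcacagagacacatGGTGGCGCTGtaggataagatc
Pcdhb4: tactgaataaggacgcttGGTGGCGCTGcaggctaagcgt
Pcdhb5: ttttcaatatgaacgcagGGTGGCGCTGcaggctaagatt

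The gamma run, CGCTGTT, was in 11 of 13 gamma promoters, 10 on the strand of the gene and 1 (Pcdhgc3) on the other. It was in 1 of 15 beta promoters, that of Pcdhb3, where it overlaps the beta run, and in 1.98% of all promoters. The beta run ends with the letters CGCTG, with which the gamma run begins. Absence of a whole run from the other cluster thus does not mean that these shared letters are absent there. The first base of the gamma run lay from −235 to −20, with a median of −53. The match at −235 is that of Pcdhga11, which lies far from the others and may not be their counterpart. The 5 gamma promoters below are those with the run on the strand of the gene and the most reads, and they lie at chr18:29794202-29794238 (Pcdhga7), chr18:29745080-29745116 (Pcdhga2), chr18:29750312-29750348 (Pcdhga3), chr18:29834356-29834389 (Pcdhga11), chr18:29825811-29825847 (Pcdhga10), on the forward strand.
Pcdhga7: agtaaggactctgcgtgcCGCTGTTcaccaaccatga
Pcdhga2: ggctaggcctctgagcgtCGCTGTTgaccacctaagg
Pcdhga3: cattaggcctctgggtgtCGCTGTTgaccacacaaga
Pcdhga11: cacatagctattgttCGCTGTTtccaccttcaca
Pcdhga10: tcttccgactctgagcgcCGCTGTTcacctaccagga

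The gamma promoters without the run were those of Pcdhga1, which did not pass counting error, and Pcdhgc5, which was lower. Of the 5 printed, Pcdhga2, Pcdhga7 and Pcdhga10 were lower, and Pcdhga3 and Pcdhga11 did not pass counting error, a split that depends on the scaling for Pcdhga2 and Pcdhga3. All 5 were printed because they hold the run, and calls of single gamma genes may rest on shared reads. A relation of the run to the calls was not tested. The whole promoters of the genes with the most reads in each cluster among those with an entry, Pcdhb19 at chr18:29478598-29478897 and Pcdhgc3 at chr18:29883995-29884294, show the runs in capitals in their place, and in that of Pcdhgc3 the capitals are the gamma run read on the other strand. The Pcdhgc3 promoter also holds cgctgtc on the strand of the gene, which differs from the gamma run in its last letter only. The match in capitals may therefore not be the counterpart of the run in the other gamma promoters.
Pcdhb19: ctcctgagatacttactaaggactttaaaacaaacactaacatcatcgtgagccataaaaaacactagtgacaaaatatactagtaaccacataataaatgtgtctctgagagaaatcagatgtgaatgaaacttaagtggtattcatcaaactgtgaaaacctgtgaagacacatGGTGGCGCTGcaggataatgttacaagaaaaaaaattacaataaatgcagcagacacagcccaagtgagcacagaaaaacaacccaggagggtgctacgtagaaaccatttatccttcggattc
Pcdhgc3: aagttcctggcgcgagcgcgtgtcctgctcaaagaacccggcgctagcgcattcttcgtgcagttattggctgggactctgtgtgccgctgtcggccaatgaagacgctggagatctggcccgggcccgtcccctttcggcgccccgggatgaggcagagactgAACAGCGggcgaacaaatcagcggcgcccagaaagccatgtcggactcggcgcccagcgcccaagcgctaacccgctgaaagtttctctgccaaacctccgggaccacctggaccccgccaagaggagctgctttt

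**Figure D5:**
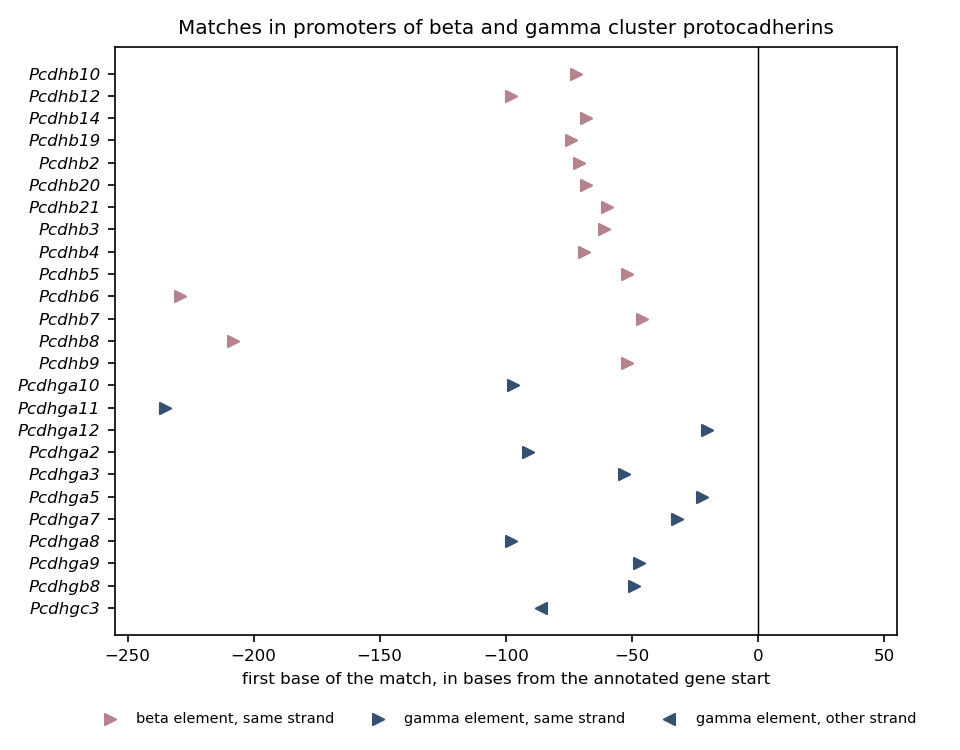
First base of each match of the beta run GGTGGCGCTG in beta promoters and of the gamma run CGCTGTT in gamma promoters (horizontal axis, bases from the gene start), 1 gene per line, with the triangle pointing along the strand of the match. Most beta matches lie close to the median of −68.5, and the gamma matches lie from −235 to −20.

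Genes that encode proteins on which clustered protocadherin promoters are known to depend were measured as RNA in the same libraries. CTCF and cohesin loop these promoters to distant enhancers, and Smchd1 and Setdb1 silence them. Of the 13 regulators listed, 6 were higher and 1 was lower beyond counting error, with a median log2 fold of 0.10, and none showed a large difference. Over all compared genes 20.3% were higher and 17.0% lower, and the counts in the lists that follow stand against the same shares. Rad21 and Smc1a, cohesin subunits with the most reads, had 2003 and 2213 counts and 1363 and 1589 counts. Their log2 folds were 0.13 (0.04 to 0.22) and 0.21 (0.10 to 0.31), both higher in HO. Ctcf, named after its values were seen, had 672 and 705 counts (0.05, −0.10 to 0.21).

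The catenins and plakophilins link cadherin tails to actin and to intermediate filaments. Of the 12 compared, 3 were lower and 2 were higher, none by a large difference, with a median log2 fold of −0.04. Ctnnb1, beta-catenin, had 9168 counts in WT and 8949 in HO (−0.05, −0.09 to −0.01) and was lower by a small step. Ctnna1, alpha-catenin, had 4790 and 4945 (0.03, −0.03 to 0.09). The summed level of the whole list of 13 genes was 2539 CPM in WT and 2442 in HO.

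In the other partner lists no gene showed a large difference. Of 13 junction adaptors and nectins compared, 1 was lower and 2 were higher, with a median of −0.03. Vcl, the actin linker vinculin, had 3685 and 3660 counts, and Pvrl2, a nectin, had 1581 and 1579. Of 3 desmosomal genes compared, 1 was higher, and the most abundant, Dsp (desmoplakin) with 4142 and 4238 counts and Dsg2 (desmoglein-2) with 1429 and 1369, did not differ beyond counting error. Among 9 genes of cadherin shedding and turnover, 3 were higher, with Ncstn of the gamma-secretase complex at 1942 and 1853 counts and Adam10, the protease that sheds N-cadherin, at 1443 and 1642 (0.17, 0.07 to 0.27).

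Among 13 genes of the WAVE complex and of kinases and phosphatases at protocadherin tails, 2 were lower and 3 were higher, with a median of 0.02. Ppp1ca, a phosphatase subunit, had 3536 and 3629 counts, and Ptk2, the focal adhesion kinase that clustered protocadherins inhibit, had 1516 and 1555. Nckap1, the partner of Pcdh10, was named after its values were seen. It had 1224 and 1543 counts (0.32, 0.21 to 0.43) and was higher. The 2 lower genes of the list, also named after their values were seen, were Wasf2 (1425 and 1198 counts) and Cyfip2 (258 and 215). A relation of these genes to Pcdh10 was not tested. Among 10 repressors of Cdh1, Tcf3 and Twist1 had the most reads, with 2054 and 1954 counts and 852 and 1023 counts. Of the 10, 1 was lower and 1 (Twist1) was higher.

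Markers of the cell types the OFT could hold also differed between the libraries, and their part in the cadherin values was not tested. In the epicardial list 5 of 6 genes were lower, with a median log2 fold of −0.67 and a summed level of 351 CPM in WT and 207 in HO. Of these, Tbx18 (1054 and 541 counts) and Tcf21 (545 and 314), transcription factors of epicardial cells, showed large differences, and Aldh1a2, the enzyme of retinoic acid synthesis, had 1097 and 740. In the mesenchyme and smooth muscle list 4 of 7 were lower and 3 higher, with a summed level of 4624 CPM and 4028. Col1a1, the chain of fibrillar collagen, had 17694 and 11585 counts and a large difference, whereas Acta2, smooth muscle actin, had 8919 and 11360 and was higher. The cardiomyocyte list had 6 of 7 higher and 1 lower, with a summed level of 18002 CPM and 20215, led by Myh7 (60417 and 64297 counts) and Actc1 (35321 and 46987).

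The smaller lists were measured in the same way, and their part in single values above was not tested. Of the neuron markers, 2 of 6 compared were lower, with Stmn2 at 1020 and 1096 counts, Tubb3 at 113 and 84, and Dcx at 28 and 3 with a large difference, and a summed level of 131 CPM in WT and 129.7 in HO. Epithelial markers were near absent, with Epcam at 2 and 0 counts and Foxa2 at 0 in both libraries, and only Krt18 (219 and 259 counts) and Krt8 (209 and 225), keratins that other cells also express, were compared. Macrophage markers were few but higher in 2 of 4, with Csf1r at 47 and 130 counts and a large difference, and C1qa at 17 and 45. The erythroid list had 2 of 4 lower and 1 higher, led by Hba1 (3852 and 3505 counts) and Alas2 (273 and 372).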

How the data were processed

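Total RNA of pooled OFTs was sequenced by the authors (single-end, Ion Proton), and reads were cleaned and aligned with MapSplice to Rnor 6.0, the build that the submitters' processing notes also name. The deposited counts are raw reads per gene for 37203 genes, and the deposited RPKM values are these counts scaled by gene length and total. The sources used here name no counting tool, annotation or strand setting. In the table, column names carry another stage (E11_5) than the labels, and columns were matched by genotype. The genes and comparison lists were chosen with earlier results of these data known.

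Library sizes were scaled by TMM in edgeR 4.0.16 (R 4.3.3), with an HO to WT ratio of 1.01. DESeq2 1.42.0 gave size factors only, and neither tool's test could be fitted with 1 library per genotype. Folds and exact Clopper-Pearson 95% intervals were computed in Python 3.11.15 with scipy 1.17.1, numpy 2.4.6 and pandas 2.3.3, centring with statsmodels 0.14.6 (lowess, fraction 0.3), and figures with matplotlib 3.10.9. The folds, intervals and call rules were tested on counts simulated with counting error alone and scaled by total counts. That setting holds no difference between pools or libraries, and the other steps were not simulated. No molecular identifiers are described for the reads, so amplified copies of the same molecule may be counted as separate reads. The intervals cover counting error only, and may be too narrow even for that if such copies were counted.

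The text names Snx17, each cadherin and protocadherin with at least 20 counts, classical cadherins at 0 in both libraries, and from each comparison list the genes with a large difference and the 2 with most reads. Pcdhb1, Ctcf, Nckap1, Wasf2, Cyfip2, Epcam, Foxa2, Foxd3 and Fabp7, the gene pairs set as ratios, and the promoter runs were chosen after their values were seen. Alternatives were total counts, DESeq2 and upper-quartile factors, the RPKM ratio, centring by gene length or abundance, no filter, at least 100 counts, 99% intervals and a 2-fold threshold. Taking the gamma cluster as 1 gene was added after the data were seen.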

Additional observations from a re-analysis of the deposited data

How the results depend on the processing

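No paired analysis was possible because there was 1 library per genotype, and no library could be left out. The count of Cdh genes higher beyond counting error, 2 with TMM, was 0 with 99% intervals, upper-quartile factors, total counts or the RPKM ratio, and 1 with centring by gene length or by abundance. The count of clustered genes lower beyond counting error, 11 with TMM, was 14 with total counts, the RPKM ratio or upper-quartile factors, 13 with centring by abundance, 12 with no filter, 10 with centring by gene length, 9 with DESeq2 factors or at least 100 counts, 5 with 99% intervals and 2 with the gamma cluster taken as 1 gene, where the median of the clustered genes was −0.12. The median log2 fold of the non-clustered Pcdh genes, 0.06, was −0.014 among genes with at least 100 counts. No other median or cluster sum that passed counting error changed direction under these alternatives. Of 56 single genes followed, Snx17 among them, 9 changed their call under at least 1 scaling or centring, and none that passed in both changed direction. The smaller cadherin counts limit what could be seen, since an interval at about 20 counts spans more than 1.5-fold in each direction. With 1 library per genotype, a difference between genotypes and one between pools, dissections or library preparations cannot be told apart.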
